A study of Rattus norvegicus with 105 samples.

Results

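The genes described here encode the proteins of the cytosolic ribosome. They were chosen by symbol: a probe set was taken where its single annotated rat symbol is Rpl or Rps followed by a number (with an optional paralogue letter or digit), or is Rpsa, Rplp0, Rplp1 or Rplp2, and the Rps6k kinases were left out. This gave 60 genes among 22954 probe sets tested, 38 of the large and 22 of the small ribosomal subunit, with no symbol on more than 1 probe set. No measured value entered the choice. Other ribosomal protein genes whose probe sets carry no single symbol in the annotation used were not analysed here.

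The study followed gastrocnemius, a hind-limb muscle, in male Sprague-Dawley rats that carried pellets of one metal, 2 in each limb and 4 in all. The pellets were of aluminum (Al), cobalt (Co), copper (Cu), depleted uranium (DU), iron (Fe), nickel (Ni), lead (Pb), tungsten (W) or tantalum (Ta), the implanted sham control, and the muscle was collected after 1, 3, 6 or 12 months. Control rats therefore had the surgery and 4 pellets as well, and no group without pellets was compared here. Each Clariom S Rat array held RNA pooled from 2 to 3 rats, and each of 35 groups had 3 arrays; nickel at 12 months was not analysed here. Rats were about 30 days old at purchase and then acclimated for at least 2 weeks, so that age, time with the pellets and the cohort of rats cannot be told apart between months.

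Ribosomal proteins are made in equal numbers, one of most of them per ribosome, and assembled with ribosomal RNA in the nucleolus. Most of their mRNAs in mammals start with a C and a run of pyrimidines, the terminal oligopyrimidine or TOP motif, through which the kinase complex mTORC1 controls their translation. In skeletal muscle, ribosome number is known to follow growth, loading and disuse, and one protein, Rpl3, has a muscle form, Rpl3l, that takes its place in mature fibres. The P-stalk proteins Rplp0, Rplp1 and Rplp2 form the arm of the large subunit that recruits elongation factors. Array values are log2 intensities, so a difference of 1 is a doubling; levels of different genes come from different probes and are not set against each other. Many ribosomal protein genes have near-identical processed copies in mammalian genomes, and whether these probes also read such copies is not known here.

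RefSeq's promoter table for the rat assembly GRCr8 held 52 of the 60 genes. The bases around the annotated start were read for those, and a C at the start followed by at least 4 bases that are each C or T, searched on the coding strand only, stood at the start of 18 of the 52 (34.6%), against 285 of 12761 array genes with an entry (2.23%). The annotated start can lie some bases from the one a muscle uses, so a missing run says only that these letters are not at that position. The windows below hold 15 bases before and 15 bases from the start, with that run in capitals, for the genes that the results turn on: 5 with the run, then Rplp2, Rpl22l1, Rpl3 and Rpl3l, which have none at the annotated start.
Rps27 (chr2:177964592-177964621, minus strand): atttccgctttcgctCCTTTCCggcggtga
Rpl19 (chr10:83519049-83519078, plus strand): cgcgaccagcaagctCTTTCCTTTCgctgc
Rplp1 (chr8:71290858-71290887, minus strand): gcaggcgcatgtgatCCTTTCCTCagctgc
Rpl28 (chr1:78083518-78083547, minus strand): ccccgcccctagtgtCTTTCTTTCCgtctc
Rplp0 (chr12:46718376-46718405, minus strand): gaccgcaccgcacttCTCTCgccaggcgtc
Rplp2 (chr1:205975906-205975935, plus strand): cctttcgccgccggacgccgccgaggtcgc
Rpl22l1 (chr2:113683181-113683210, plus strand): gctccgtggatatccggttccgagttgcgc
Rpl3 (chr7:113507976-113508005, minus strand): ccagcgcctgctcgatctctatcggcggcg
Rpl3l (chr10:14258431-14258460, plus strand): gacctctggtgcctggtggggaggtccctt

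The 250 bases upstream of the annotated starts of Rpl3 and Rpl3l are shown because the levels of these alternative forms of one protein are set side by side below. Capitals mark CANNTG, the E-box letters that muscle regulatory factors such as MyoD are known to bind; the pattern reads the same on both strands, and the matches do not overlap. Rpl3l held 4 matches and Rpl3 held 0. Over the same length, 7486 of 12761 array genes (58.7%) and 24 of the 52 ribosomal protein genes (46.2%) held at least 1.
Rpl3l (chr10:14258196-14258445, plus strand): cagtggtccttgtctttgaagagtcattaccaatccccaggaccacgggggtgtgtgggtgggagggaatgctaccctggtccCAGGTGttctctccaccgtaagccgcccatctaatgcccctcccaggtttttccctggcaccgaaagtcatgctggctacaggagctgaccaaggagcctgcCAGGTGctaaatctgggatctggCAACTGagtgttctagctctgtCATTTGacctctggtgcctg
Rpl3 (chr7:113507991-113508240, minus strand): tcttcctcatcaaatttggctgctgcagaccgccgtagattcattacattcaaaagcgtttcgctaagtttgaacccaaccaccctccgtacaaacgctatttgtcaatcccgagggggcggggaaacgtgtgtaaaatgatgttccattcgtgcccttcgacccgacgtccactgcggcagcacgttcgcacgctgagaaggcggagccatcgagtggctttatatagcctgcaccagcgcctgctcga

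The genes were brightly measured. Mean levels over all arrays ran from 4.14 for Rps12l4 to 13.16 for Rps29, 50 of the 60 lay above 9, and 59 lay above the median of the background control probe sets on every array. The median SD of a gene's 35 group means was 0.107, against 0.144 over all probe sets. Rpl3 varied most between groups (SD 0.350), followed by Rpl22l1 (0.328), Rps27 (0.251), Rplp1 (0.203) and Rpl18 (0.186), and Rps7, Rpl21, Rpl27, Rpl7 and Rpl11 varied least (0.0534 to 0.0686). The 10 measured markers of skeletal muscle fibres, such as myosin heavy chains and troponins, had a mean level between 12.56 and 13.34 on every array, so the labelled tissue carried its markers throughout.

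**Figure D1:**
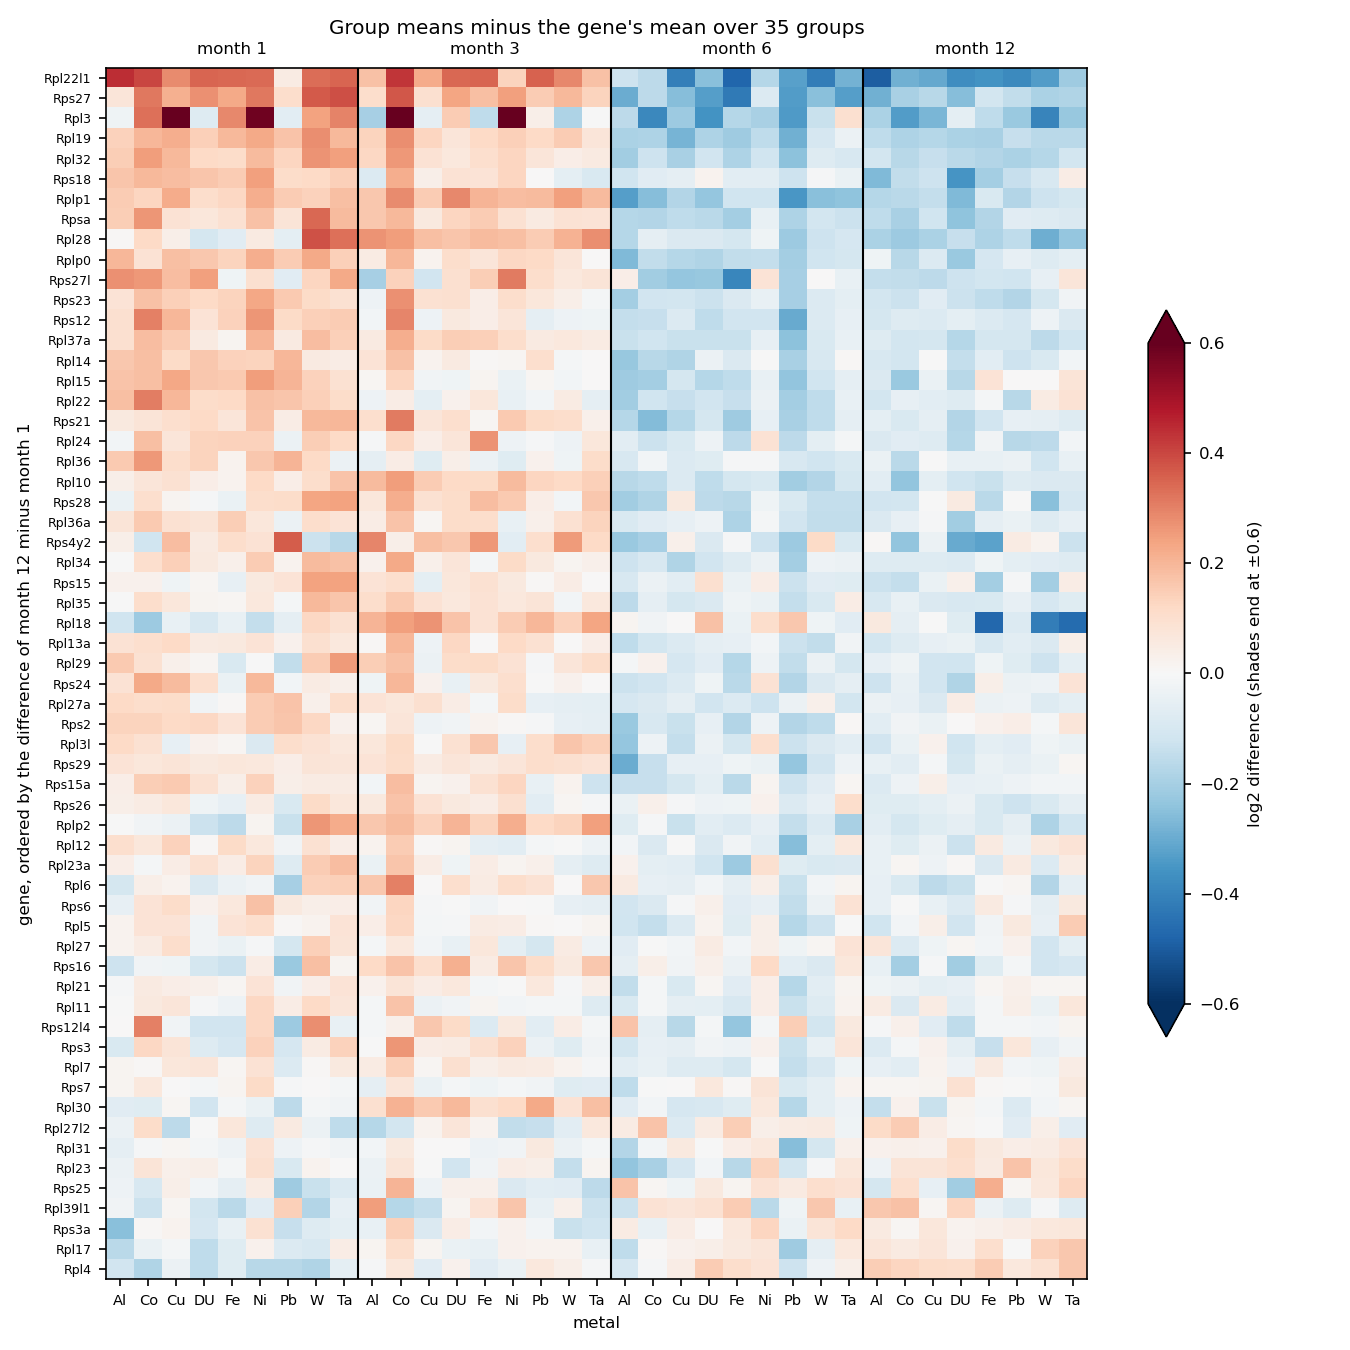
Mean log2 intensity of each of the 60 genes (rows) in each of the 35 groups (columns, by month, tantalum last in each month), minus that gene's mean over the groups. Rows are ordered by the difference of month 12 minus month 1; most rows are redder at months 1 and 3 and bluer at months 6 and 12, and Rpl3 is darkest red in cobalt and nickel muscle at 3 months and copper and nickel muscle at 1 month.

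The arrays numbered 1 at 6 and 12 months stood apart, in every metal at 12 months and in 8 of 9 at 6 months. At 12 months the mean of the 60 genes was between 9.78 and 9.87 on the 8 arrays numbered 1, and between 9.98 and 10.14 on the 16 others, so the sets did not overlap. At 6 months it was between 9.66 and 9.90 on the 9 arrays numbered 1, and between 9.74 and 10.14 on the 18 others, of which 17 lay above every array numbered 1. No such split was present at 1 month (10.02 to 10.16 on arrays numbered 1, 9.97 to 10.22 on the others) or at 3 months (10.03 to 10.21 and 10.05 to 10.27). The labels do not say whether arrays of one number were processed together.

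Within the month, 26 of the 60 genes were lower on the arrays numbered 1 than on the other 2 arrays of the same metals at 6 months (background 5.67% of all probe sets lower), with a median difference of -0.17, and 0 were higher. At 12 months 35 were lower (background 6.04%), with a median of -0.25, and 0 were higher. At 1 and 3 months limma called 0 genes on the arrays numbered 1, and 1 and 4 genes had an unadjusted p below 0.05. Other large complexes moved with them: 31 of 65 mitochondrial ribosomal protein genes and 9 of 14 constitutive proteasome subunits were lower on the arrays numbered 1 at 6 months, and 33 and 9 at 12 months. Muscle fibre markers gave 0 and 1 of 10 lower. Of 5 endothelial markers 3 were higher on the arrays numbered 1 at 6 months (median 0.26) and 1 at 12 months (median 0.16). Of 8 fibroblast and matrix markers 0 were called at 6 months (median 0.16), and 1 was lower at 12 months, where all 8 lay below 0 (median -0.099). Of 13 leukocyte markers 1 was lower in each of these months (medians 0.11 and -0.030). The part of these markers in the split was not tested. The main counts over months are given with and without the arrays numbered 1. Arrays numbered 2 and 3 also differed from the other arrays of their month. At 6 months 22 of the 60 genes were higher and 0 lower on number 2 (1342 and 1279 of 22954 probe sets). On number 3 there were 10 and 5 (777 and 1047). At 12 months there were 16 and 1 on number 2 (787 and 988) and 18 and 5 on number 3 (1123 and 1061). The arrays numbered 1 are among the others here, and numbers 2 and 3 were not tested against each other.

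At 6 months 4 arrays also had low muscle fibre markers: aluminum array 1 (12.56), lead array 3 (12.73), tungsten array 3 (12.88) and cobalt array 2 (12.91). All others lay at or above 13.03. The mean of the 60 genes on these 4 arrays was 9.66, 9.74, 9.92 and 9.98. Some counts are also given without these arrays, a choice made after the values were seen. They are mainly counts of the 60 genes over comparisons, and of muscle fibre markers between 3 and 6 months. Counts by array number, of other lists and of other cell type markers, and differences of single genes, are not given without these 4 arrays.

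**Figure D2:**
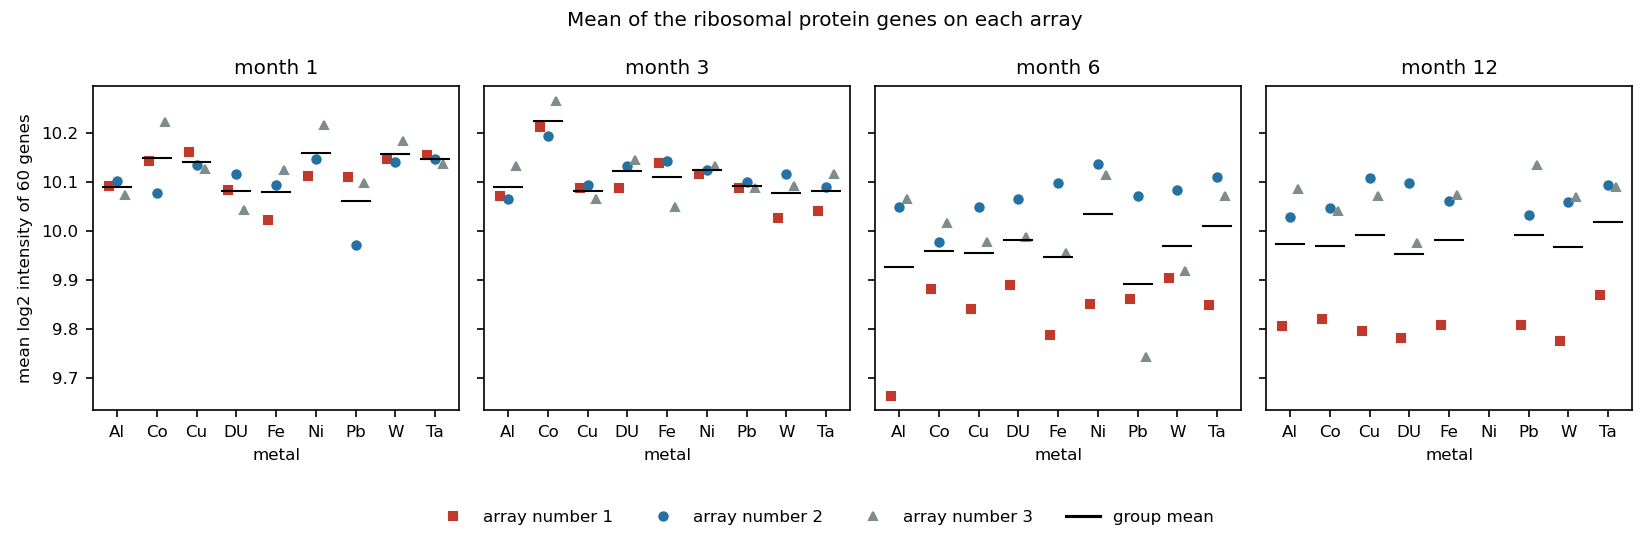
Mean log2 intensity of the 60 ribosomal protein genes on each array, by metal (tantalum last) in 4 panels for the months; squares, circles and triangles are the arrays numbered 1, 2 and 3, and bars are group means. The arrays numbered 1 lie below the rest of their group in 8 of 9 groups at 6 months and 8 of 8 at 12 months, against 2 of 9 at 1 month and 5 of 9 at 3 months.

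The comparison of months asked how the genes changed while rats aged with their pellets, over the 8 metals with all 4 months, tantalum included (24 arrays a month). The fit took these arrays as independent. Arrays of one number deviated together across metals at 6 and 12 months, so SEs and p-values between months can be too small. At 12 months 36 of the 60 genes were lower than at 1 month and 3 were higher, with a median log2 difference of -0.13; of all probe sets, 20.7% were lower and 23.4% higher, and their median difference was 0.018. Without the arrays numbered 1 at 6 and 12 months, 20 genes were lower (background 19.0%) and 9 higher (background 19.5%), and the median was -0.036. The 20 were all among the 36. Computed within one array number, with metal as a block, the median was -0.32 on arrays numbered 1, -0.015 on arrays numbered 2 and -0.077 on arrays numbered 3, with 46 genes lower on arrays numbered 1 (background 14.0%), 8 on arrays numbered 2 (background 9.29%) and 20 on arrays numbered 3 (background 12.4%). The arrays numbered 1 had the lowest median, and 7 genes were lower within each of the 3 numbers. The share of all probe sets lower within all 3 is not given here, so the 7 have no background.

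Most of the change lay between 3 and 6 months. At 6 months 38 genes were lower than at 3 months (background 20.7%) and 0 were higher (background 18.9%), with a median of -0.15. Without the arrays numbered 1 at 6 and 12 months, 21 were lower (background 20.0%) and 5 higher (background 17.8%), with a median of -0.071. The 21 were all among the 38. Within each number 5 were lower, again with no background given. Without the 4 arrays of low muscle fibre markers, 30 were lower (background 18.0%) and 1 higher (background 19.9%), with a median of -0.11. Without both sets of arrays, 19 were lower (background 16.4%) and 8 higher (background 17.8%), with a median of -0.038. Between 1 and 3 months 6 genes rose and 4 fell (background 20.1% in either direction), with a median of -0.021; without the arrays numbered 1 at 6 and 12 months, which enter here only through the estimate of the spread, 7 rose and 5 fell (background 22.1%). Between 6 and 12 months 3 rose and 1 fell (background 4.36%), with a median of 0.032, and the counts were also 3 and 1 without the arrays numbered 1 (background 1.57%; median 0.051). Without the 4 arrays of low muscle fibre markers 1 rose and 2 fell (433 and 370 of 22954 probe sets), with a median of -0.0046. Without both sets of arrays 1 rose and 2 fell (142 and 115 of 22954), with a median of 0.014. Within arrays numbered 1 the median was -0.014, so its sign and the balance of the counts rested on the arrays used. In a moderated F test over the 4 months, 45 of 60 genes differed between months, beside 60.3% of all probe sets.

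**Figure D3:**
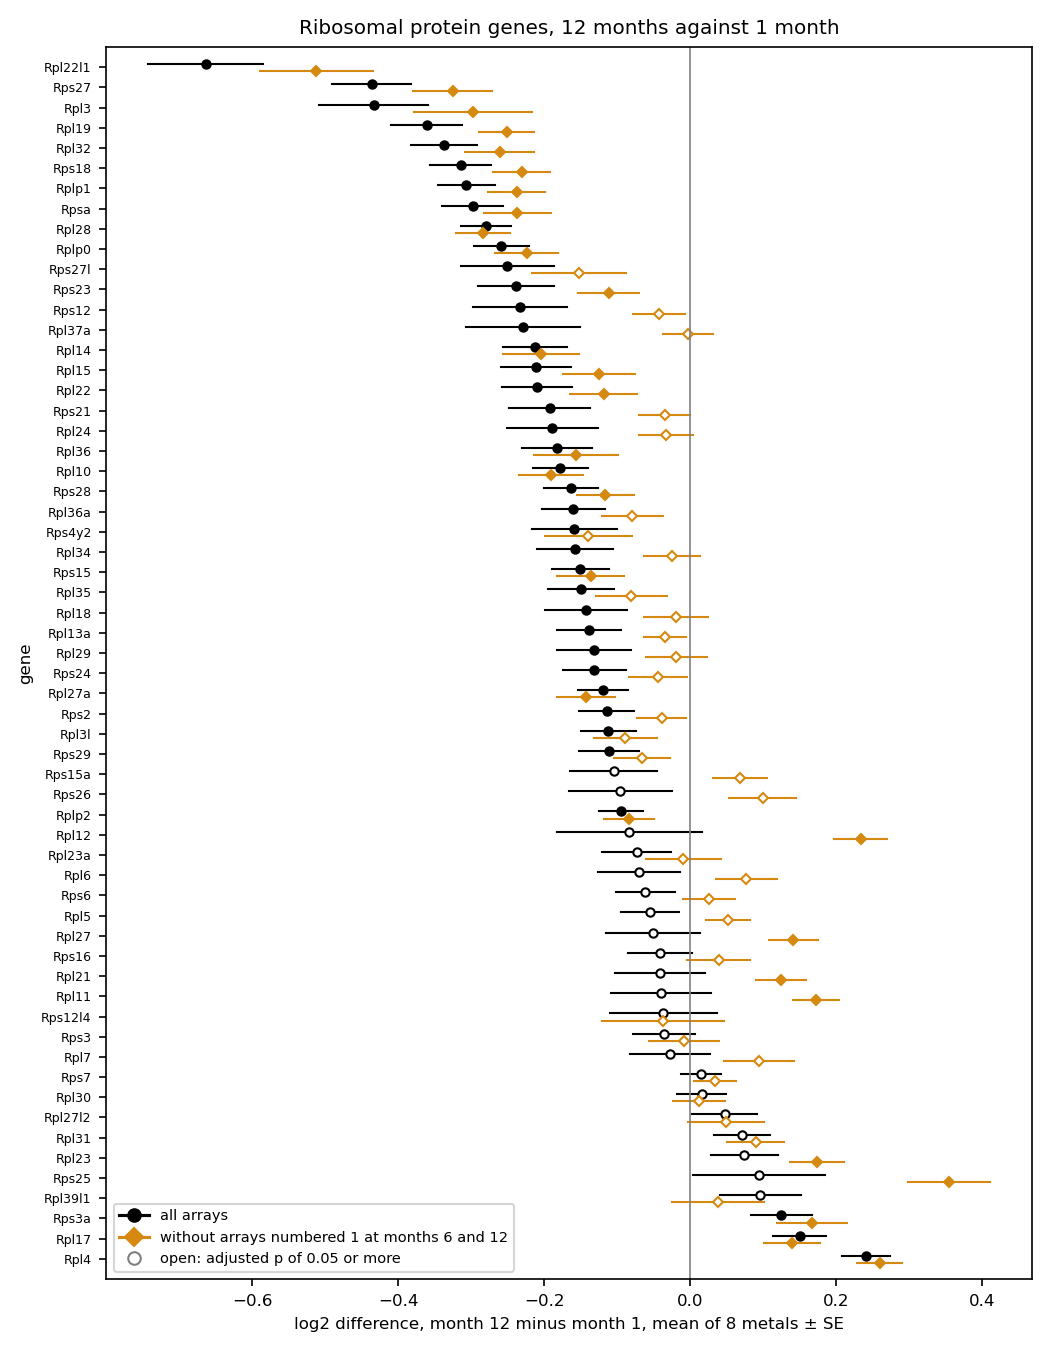
Log2 difference of month 12 minus month 1 for each of the 60 genes, as the mean of 8 metals with its SE, with all arrays (black circles) and without the arrays numbered 1 at 6 and 12 months (orange diamonds); open symbols did not pass an adjusted p of 0.05. Filled black circles lie left of 0 for 36 genes and right of it for 3; the orange diamonds shift right, to 20 and 9.

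Rpl22l1, a paralogue of the large subunit protein Rpl22, showed the largest fall. Its level ranged over 7.27, 7.93 and 8.13 (lowest, median and highest of 24 arrays) at 1 month, 7.53, 7.84 and 8.13 at 3 months, 6.72, 7.21 and 7.67 at 6 months, and 6.63, 7.17 and 7.77 at 12 months. All 24 arrays at 12 months lay below the median of those at 1 month, and 13 lay below the lowest. Month 12 differed from month 1 by -0.66 ± 0.079 (SE; adjusted p = 4.4e-11), and by -0.51 ± 0.077 without the arrays numbered 1 (adjusted p = 2.2e-07). Within numbers 1, 2 and 3 the difference was -0.91, -0.36 and -0.73. Rpl22 itself differed by -0.21 ± 0.048 (adjusted p = 0.00019), and by -0.12 ± 0.046 without the arrays numbered 1 (adjusted p = 0.036).

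Rps27, a zinc-finger protein of the small subunit, also fell. Its level ranged over 9.49, 9.79 and 9.90 at 1 month, 9.30, 9.68 and 10.00 at 3 months, 8.77, 9.15 and 9.61 at 6 months and 8.92, 9.28 and 9.70 at 12 months. All 24 arrays at 12 months lay below the median of 1 month. The difference of month 12 from month 1 was -0.44 ± 0.053 (adjusted p = 1.4e-10), and -0.33 ± 0.054 without the arrays numbered 1. Its paralogue Rps27l, known as a p53 target, differed by -0.25 ± 0.064 (adjusted p = 0.00078); without the arrays numbered 1 the difference was -0.15 ± 0.065 and did not pass (adjusted p = 0.056).

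The P-stalk genes fell together. Rplp1 ranged over 11.52, 11.78 and 11.97 at 1 month, 11.68, 11.82 and 12.00 at 3 months, 10.87, 11.39 and 11.62 at 6 months, and 11.22, 11.51 and 11.73 at 12 months; month 6 minus 3 was -0.46 ± 0.039, and -0.44 ± 0.039 without the arrays numbered 1. Its highest array at 6 months lay below its lowest at 3 months, so those months did not overlap. Rplp0, the base of the stalk, ranged over 10.58, 10.77 and 10.90 at 1 month and 10.21, 10.51 and 10.76 at 12 months; month 12 minus 1 was -0.26 ± 0.038, and -0.22 ± 0.043 without those arrays. Rplp2 rose by 0.17 ± 0.030 between 1 and 3 months (adjusted p = 2.9e-05) and fell by 0.26 ± 0.030 between 3 and 6 months (adjusted p = 3.4e-11; 0.27 without the arrays numbered 1), so that month 12 minus 1 was only -0.094 ± 0.030 (adjusted p = 0.0077). For all 3 stalk genes month 12 minus 1 and month 6 minus 3 also passed without the arrays numbered 1.

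Among other large subunit genes, Rpl3 differed between month 12 and month 1 by -0.43 ± 0.074, Rpl19 by -0.36 ± 0.049, Rpl32 by -0.34 ± 0.045 and Rpl28 by -0.28 ± 0.034; without the arrays numbered 1 these were -0.30, -0.25, -0.26 and -0.28, all still past the threshold. For Rpl3 the difference within arrays numbered 3 was -0.13 and did not pass (adjusted p = 0.58). Rpl10, which joins late in the maturation of the large subunit, fell by 0.30 ± 0.038 between 3 and 6 months and by 0.32 ± 0.043 without those arrays. Rpl28 rose by 0.13 ± 0.034 between 1 and 3 months and fell by 0.33 ± 0.034 between 3 and 6 months. Rpl18 and Rpl30 rose by 0.24 ± 0.057 and 0.21 ± 0.033 between 1 and 3 months. Rpl18 fell by 0.21 ± 0.057 between 6 and 12 months, and by 0.18 ± 0.048 without those arrays. Rpl22 and Rpl15 fell by 0.16 ± 0.048 and 0.15 ± 0.048 between 1 and 3 months.

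In the small subunit, Rpsa, also known as the laminin receptor precursor, had a median of 9.53 at 12 months (9.25 to 9.91), against 9.85 at 1 month (9.62 to 10.06). Of the 24 arrays at 12 months, 23 lay below the median of 1 month. The difference was -0.30 ± 0.042, and -0.24 ± 0.046 without the arrays numbered 1. Rps18 differed by -0.31 ± 0.042 between month 12 and month 1, and by -0.23 ± 0.039 without those arrays. It fell by 0.13 ± 0.042 between 1 and 3 months. Rps2 fell by 0.12 ± 0.038 between 1 and 3 months and rose by 0.13 ± 0.038 between 6 and 12 months (0.15 ± 0.037 without those arrays). Rps16 rose by 0.18 ± 0.044 between 1 and 3 months. By subunit, 23 of 38 large and 13 of 22 small subunit genes were lower at 12 months than at 1 month (background 20.7%). With all arrays 2 and 1 were higher (background 23.4%). Without the arrays numbered 1, 14 and 6 were lower (background 19.0%) and 7 and 2 higher (background 19.5%).

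A few genes went the other way. Rpl4, a large subunit protein lining the exit tunnel, ranged over 11.86, 11.97 and 12.07 at 1 month, 11.95, 12.11 and 12.17 at 3 months, 11.58, 12.14 and 12.28 at 6 months and 12.06, 12.21 and 12.32 at 12 months. Of its 24 arrays at 12 months, 23 lay above the highest at 1 month, and month 12 minus 1 was 0.24 ± 0.032 (adjusted p = 2.4e-09; 0.21 to 0.29 within the 3 numbers). Rpl17 and Rps3a rose by 0.15 ± 0.037 and 0.12 ± 0.041 between month 1 and month 12, and by 0.14 and 0.17 without the arrays numbered 1. A further 6 genes, Rpl11, Rpl12, Rpl21, Rpl23, Rpl27 and Rps25, passed as higher at 12 months only when the arrays numbered 1 were left out; they were picked out after their values were seen. Rps25 differed by 0.35 ± 0.056 without those arrays and by 0.095 ± 0.090 with them, and was -0.39, 0.18 and 0.46 within numbers 1, 2 and 3. Rpl12 differed by 0.23 ± 0.036 without those arrays and by -0.083 ± 0.099 with them, and was -0.72, 0.19 and 0.27 within the numbers. In both genes the arrays numbered 1 went the other way from the rest, and neither passed with all arrays. Over the 60 genes, 11 lay below 0 with all arrays and above 0 without the arrays numbered 1, and 0 went the other way.

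Of 18 genes with the pyrimidine run at the annotated start, 13 were lower at 12 months than at 1 month. Of 34 without the run, 20 were lower (background 20.7%). Leaving out the arrays numbered 1 gave 10 of 18 and 8 of 34 (background 19.0%). With all arrays 2 of 18 and 1 of 34 were higher (background 23.4%). These were 2 and 5 without the arrays numbered 1 (background 19.5%). The 2 with the run that were higher with all arrays were Rpl17 and Rps3a. The medians were -0.19 and -0.12 with all arrays, and -0.13 and -0.035 without those arrays. Within arrays numbered 2 both medians were -0.015. This split was made after results of these data were known and its difference was not tested.

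Markers of other cell types moved over the same months. Of all probe sets, 20.7% were lower and 23.4% higher at 12 months than at 1 month. Between 3 and 6 months 20.7% fell and 18.9% rose. All 8 fibroblast and matrix markers were lower at 12 months than at 1 month, with a median of -1.48 (-1.42 without the arrays numbered 1), as were 5 of 5 endothelial markers with a median of -0.45 (5 of 5 and -0.56 without those arrays) and 7 of 13 leukocyte markers with a median of -0.25 (4 of 13 and -0.18 without them). Of 10 muscle fibre markers 3 were lower and 1 higher, with a median of -0.025 (2 lower and 0 higher without the arrays numbered 1). Between 3 and 6 months, where most of the ribosomal protein difference lay, 6 of 10 muscle fibre markers were lower and 0 higher, with a median of -0.13 (5 lower and -0.12 without the arrays numbered 1). Without the 4 arrays of low muscle fibre markers, 3 were lower and 1 higher, with a median of -0.053. Between these months 12 of 13 leukocyte markers were also lower (median -0.26; 11 and -0.27 without the arrays numbered 1), and 6 of 8 fibroblast and matrix markers (median -0.62; 7 and -0.69). Of 5 endothelial markers 4 were lower, with a median of -0.22 (4 and -0.26). Their part in the ribosomal protein results was not tested, and fewer cells of a type cannot be told apart from less RNA per cell in these bulk samples.

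Other genes of translation and ribosome production were counted by list, here and in the next paragraph. At 12 months against 1 month 23.4% of all probe sets were higher and 20.7% lower. Without the arrays numbered 1 these shares were 19.5% and 19.0%. Several of the list counts lie near them. Of 29 measured initiation factors 13 were higher and 8 lower at 12 months than at 1 month (12 and 5 without the arrays numbered 1), with a median of 0.0097. Eif3e, Eif4b and Eif4a2 rose by 0.46 ± 0.050, 0.28 ± 0.032 and 0.24 ± 0.034. Of 32 ribosome assembly and nucleolar genes 10 were higher and 3 lower (11 and 1 without those arrays), among them the histone chaperone Npm1 at 0.43 ± 0.038 and nucleolin, Ncl, at 0.21 ± 0.029. Of 13 genes of RNA polymerase I and its factors, which make ribosomal RNA, 4 were higher and 1 lower (4 and 0), with Polr1a at 0.15 ± 0.036 and the initiation factor Rrn3 at 0.16 ± 0.041.

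Of 12 elongation and release factors, 7 were lower (background 20.7%) and 2 higher (background 18.9%) at 6 months than at 3 months. Eef1g differed by -0.25 ± 0.039 and Eef2 by -0.14 ± 0.033. Without the arrays numbered 1, 7 were lower (background 20.0%) and 1 higher (background 17.8%). Within arrays numbered 1, 2 and 3 the list's median was -0.095, 0.0063 and -0.20. Counts of this list without the 4 arrays of low muscle fibre markers are not given here. At 12 months against 1 month 2 factors were lower and 1 higher (2 and 3 without the arrays numbered 1). Of 14 genes of mTORC1 and TOP mRNA control, 4 were higher and 4 lower at 12 months (2 and 3 without those arrays). The list's median was -0.025, and 0.00032 without those arrays, so the list did not fall as a whole. With all arrays, the kinase Mtor, its partner Rptor and the upstream kinase Akt1 fell by 0.20 ± 0.032, 0.28 ± 0.041 and 0.34 ± 0.035. The 4 higher genes are not named here. Rack1, a scaffold on the small subunit, fell by 0.39 ± 0.054 and was the 1 of 6 other ribosome-bound proteins that passed. Of 65 mitochondrial ribosomal protein genes 25 were lower and 8 higher (20 and 17 without the arrays numbered 1), with Mrpl37 at -0.26 ± 0.031 and Mrpl52 at -0.41 ± 0.065.

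Within single metals the comparison of 12 months with 1 month rested on 3 arrays a side. It called 12 genes lower in tungsten muscle (background 7.40%), 7 in cobalt (background 3.94%), 5 in depleted uranium (background 2.68%), 2 in aluminum (background 1.63%), 2 in copper (background 4.79%), 0 in iron (background 2.35%), 0 in lead (background 2.12%) and 5 in tantalum (background 4.38%). In iron and lead, 11 and 10 of the 60 genes had an unadjusted p below 0.05, beside 3859 and 4858 of 22954 probe sets. The median difference was below 0 in all 8 metals, between -0.18 in tungsten and -0.077 in iron, and -0.11 in tantalum. Rpl4 rose in cobalt and tungsten muscle, by 0.31 ± 0.092 and 0.27 ± 0.092.

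With all arrays, Rpl22l1 differed by -0.94 ± 0.22 in aluminum, -0.72 ± 0.22 in depleted uranium, -0.69 ± 0.22 in cobalt and -0.67 ± 0.22 in tungsten muscle, all past the threshold, and by -0.56 ± 0.22 in tantalum muscle, which did not pass (adjusted p = 0.11). None of the 4 calls of Rpl22l1 passed without the arrays numbered 1 at 6 and 12 months.

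Without those arrays the lower counts were 6 in tungsten (background 6.38%), 0 in aluminum (background 0.867%), 1 each in cobalt (background 3.28%), copper (background 3.35%), depleted uranium (background 1.52%) and iron (background 1.56%), 0 in lead (background 1.14%) and 1 in tantalum (background 3.54%). In both directions 17 pairs of gene and metal passed, of which 12 were among the 35 that passed with all arrays. The median was then between -0.093 and 0.039. With all arrays, Rpl28 differed by -0.68 ± 0.097 in tungsten and -0.34 ± 0.097 in cobalt muscle and by -0.56 ± 0.097 in tantalum muscle. The tungsten and tantalum calls of Rpl28 also passed without the arrays numbered 1. An effect that passed in one metal and not in another is not thereby shown to differ between them.

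The comparison of each metal with tantalum of the same month asked whether the metal itself altered the ribosomal protein genes. Of 1860 gene-by-comparison pairs in 31 comparisons, 7 passed, in 5 comparisons. In those 5, between 0.0653% and 4.87% of all probe sets passed in the direction of the members called. Across the 31 comparisons, 0 to 1254 of 22954 probe sets passed in a comparison. Their share over the 31 together is not given here, so the 7 pairs have no pooled background and are not read as many or few. An unadjusted p below 0.05 was found for 65 pairs. These were 0 to 6 of the 60 genes in a comparison, beside 875 to 4609 of 22954 probe sets. The count of 7 moved with the fit. It was 21 with a replicate block, 15 with only the arrays of the same month and 14 without the arrays numbered 1 at 6 and 12 months. It was 12 without the 4 arrays of low muscle fibre markers and 4 against all other groups of the month. Leaving out a replicate number or a single array gave between 1 and 7. Pooled shares of all probe sets under these other fits are not given here, so their counts have no background. In the other 26 comparisons limma called 0 members, where 0.0558% of all probe set tests passed. As means over months, 0 of 480 pairs passed in 8 comparisons (background 0.545%), with 12 at an unadjusted p below 0.05. These 12 were 0 to 4 of the 60 genes in a comparison, beside 1435 to 4291 of 22954 probe sets. The median difference of the 60 genes lay between -0.059 in lead and 0.029 in nickel. In moderated F tests 2 genes, Rpl3 and Rpl28, differed among the 9 metals over months 1, 3 and 6 (background 5.42%). Rpl3 was also the 1 gene whose metal differences depended on the month (background 5.58%).

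Rpl3, which sits by the peptidyl transferase centre, was higher in cobalt and in nickel muscle at 3 months. Its level was 8.82, 8.77 and 9.02 on the cobalt arrays and 8.83, 8.61 and 8.24 on the nickel arrays, against 7.76, 7.69 and 7.81 on the tantalum arrays. All 6 lay above the tantalum arrays, and also above the 18 arrays of the other 6 metals at that month (7.37 to 8.07). The difference was 1.12 ± 0.21 in cobalt (adjusted p = 4.9e-05), the 1 gene called higher there (background 4.87%), and 0.81 ± 0.21 in nickel (adjusted p = 0.012), again the 1 gene called higher (background 2.82%). Against all other groups of the month instead of tantalum, the differences were 1.06 ± 0.16 and 0.72 ± 0.16. The nickel call was lost when 1 of 3 single arrays was left out: nickel 1 (0.68, adjusted p = 0.16), nickel 2 (0.79, adjusted p = 0.065) or tantalum 2 (0.78, adjusted p = 0.054).

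Rpl3l, the muscle form, did not pass in either metal. It was at 11.02, 10.91 and 10.88 in cobalt and 10.84, 10.77 and 10.72 in nickel muscle, against 10.96, 10.93 and 11.01 in tantalum muscle. The differences were -0.025 (95% interval -0.24 to 0.19) in cobalt and -0.19 (95% interval -0.40 to 0.025; adjusted p = 0.47) in nickel. The 3 nickel arrays lay below the 3 tantalum arrays, and the cobalt arrays overlapped them. Over all 31 comparisons Rpl3l was called in 0 and had an unadjusted p below 0.05 in 0.

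Over the 35 groups Rpl3 was highest in cobalt at 3 months (8.87 ± 0.13, SD, n = 3), then in nickel at 3 months (8.56 ± 0.30), copper at 1 month (8.38 ± 0.40) and nickel at 1 month (8.34 ± 0.32). The last 3 of these differed from each other by less than the SD of any of them. Rpl3 was lowest in tungsten at 12 months, at 7.36. In cobalt muscle its difference from tantalum at 1, 6 and 12 months was 0.031, -0.48 and -0.11, none past the threshold, and in nickel muscle the differences at 1 and 6 months were 0.28 and -0.29. Copper at 1 month exceeded tantalum by 0.33 ± 0.21 and did not pass.

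**Figure D4:**
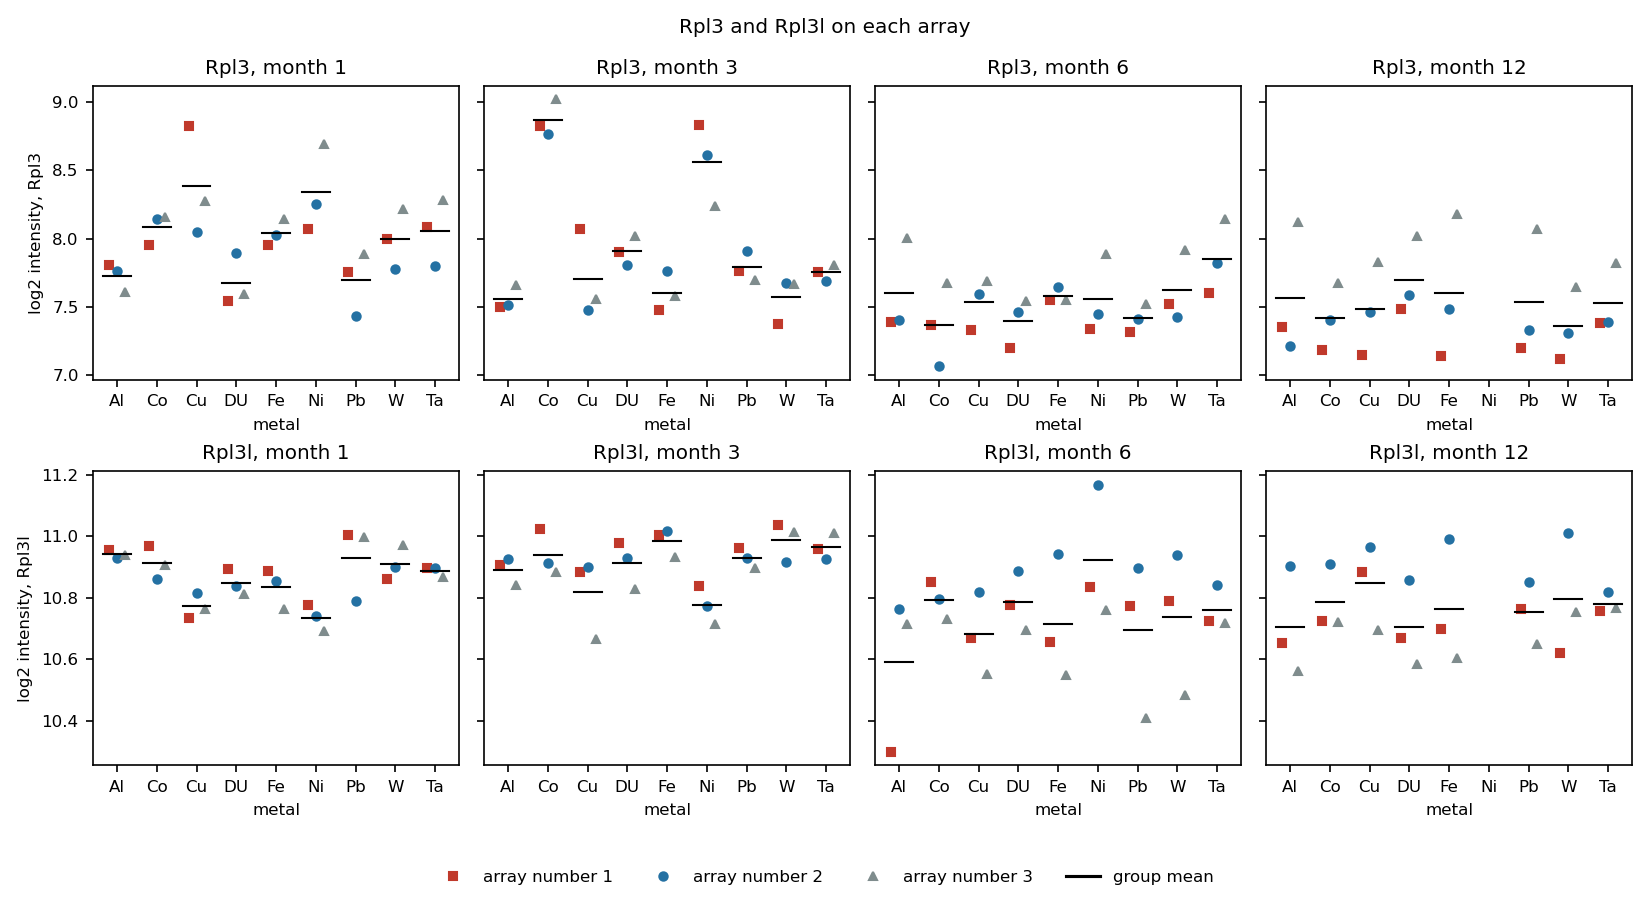
Log2 intensity of Rpl3 (upper row) and Rpl3l (lower row) on each array, by metal (tantalum last) and month; squares, circles and triangles are the arrays numbered 1, 2 and 3, and bars are group means. At 3 months the cobalt and nickel arrays of Rpl3 lie between 8.24 and 9.02 and all other arrays at or below 8.07, while Rpl3l stays between 10.67 and 11.04 in every metal.

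Leukocyte markers moved with Rpl3 in these groups. Their mean level per array was 7.76 to 8.09 in cobalt and 6.66 to 7.04 in nickel muscle, against 5.77 to 6.27 in tantalum muscle at 3 months, and 12 of 13 were called higher in cobalt (median 1.88) and 6 of 13 in nickel (median 0.69). In nickel muscle 6 of 8 fibroblast and matrix markers (median 1.01) and 4 of 7 markers of immature muscle (median 1.65) were also higher; in cobalt muscle 0 of 8 and 0 of 7 were. Muscle fibre markers gave 0 of 10 in both metals, with medians of -0.051 and -0.067. Their part in the Rpl3 difference was not tested.

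The elongation factor Eef1a1, the form of eEF1A found in most tissues, was also higher in both, by 0.65 ± 0.13 in cobalt (adjusted p = 9.1e-05) and 0.60 ± 0.13 in nickel muscle (adjusted p = 0.0011). Eef1a2, the form of adult muscle and nerve, differed by -0.16 ± 0.097 in cobalt and did not pass. Eef1a1 was the 1 of 12 elongation and release factors that passed in either metal, and Eif4a1 the 1 of 29 initiation factors that passed in cobalt muscle, at 0.30 ± 0.081. Without the arrays numbered 1 at 6 and 12 months, which enter these comparisons only through the estimate of the spread, 4 further ribosomal protein genes passed as higher in cobalt muscle at 3 months (5 in all; background 5.08%): Rps12 (0.32), Rps15a (0.31), Rps21 (0.28) and Rpl11 (0.25). The median of the 60 genes was 0.12 in cobalt muscle, where 53 lay above 0 and the median of all probe sets was -0.052. In nickel muscle it was 0.052.

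At 1 month the genes called were lower in depleted uranium, iron and lead muscle. Rplp2 was at 10.42, 10.53 and 10.46 in depleted uranium, 10.42, 10.46 and 10.44 in iron and 10.50, 10.42 and 10.47 in lead muscle, against 10.80, 10.76 and 10.89 in tantalum muscle. The differences were -0.35 ± 0.085, -0.38 ± 0.085 and -0.35 ± 0.085, with adjusted p of 0.049, 0.032 and 0.014. Rpl28 was at 11.65, 11.77 and 11.76 in depleted uranium and 11.87, 11.60 and 11.84 in lead muscle, against 12.10, 12.17 and 12.20 in tantalum muscle, with differences of -0.43 ± 0.097 (adjusted p = 0.026) and -0.39 ± 0.097 (adjusted p = 0.019). These were 2 genes in depleted uranium (background 0.235%), 1 in iron (background 0.0653%) and 2 in lead (background 1.73%). Without the arrays numbered 1 at 6 and 12 months, which enter here only through the estimate of the spread, 3 further genes passed in lead muscle (5 in all; background 4.27% in either direction): Rpl29 (-0.40) and Rpl6 (-0.34) were lower and Rps4y2 (0.53) was higher. Neither gene's arrays in those metals overlapped the tantalum arrays.

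Tungsten muscle at 1 month was as high as tantalum muscle for both genes. Rplp2 was at 10.80, 10.86 and 10.91 in tungsten muscle, and the 21 arrays of the other 7 metals lay between 10.42 and 10.70; Rpl28 was at 12.13, 12.23 and 12.27, and the others between 11.60 and 12.02. With all other groups of the month as the comparison instead of tantalum, none of the 5 calls in depleted uranium, iron and lead passed (differences of -0.15 to -0.20, adjusted p from 0.12 to 0.88). Tungsten was instead called higher, by 0.29 ± 0.064 for Rplp2 (adjusted p = 0.018) and 0.34 ± 0.073 for Rpl28 (adjusted p = 0.012). This other reference included the remaining metals of lower level, so smaller differences follow from its makeup. All 3 comparisons with tantalum share its arrays. Whether tantalum and tungsten stood high or the other metals low was not tested. The depleted uranium and iron calls were lost when any 1 array of their own group or of tantalum was left out, with differences that stayed between -0.46 and -0.40 (Rpl28, depleted uranium), -0.41 and -0.31 (Rplp2, depleted uranium) and -0.42 and -0.34 (Rplp2, iron). In lead, Rpl28 was lost without lead array 2 or tantalum array 2, and Rplp2 without lead array 2 or tantalum array 3. Of 13 leukocyte markers 0 passed in these 3 groups, with medians of -0.20, -0.097 and -0.24. At 3 months the arrays of tungsten (10.70 to 10.75 for Rplp2) lay within the range of the other 7 metals (10.66 to 10.87), beside 10.77 to 10.88 in tantalum muscle.

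**Figure D5:**
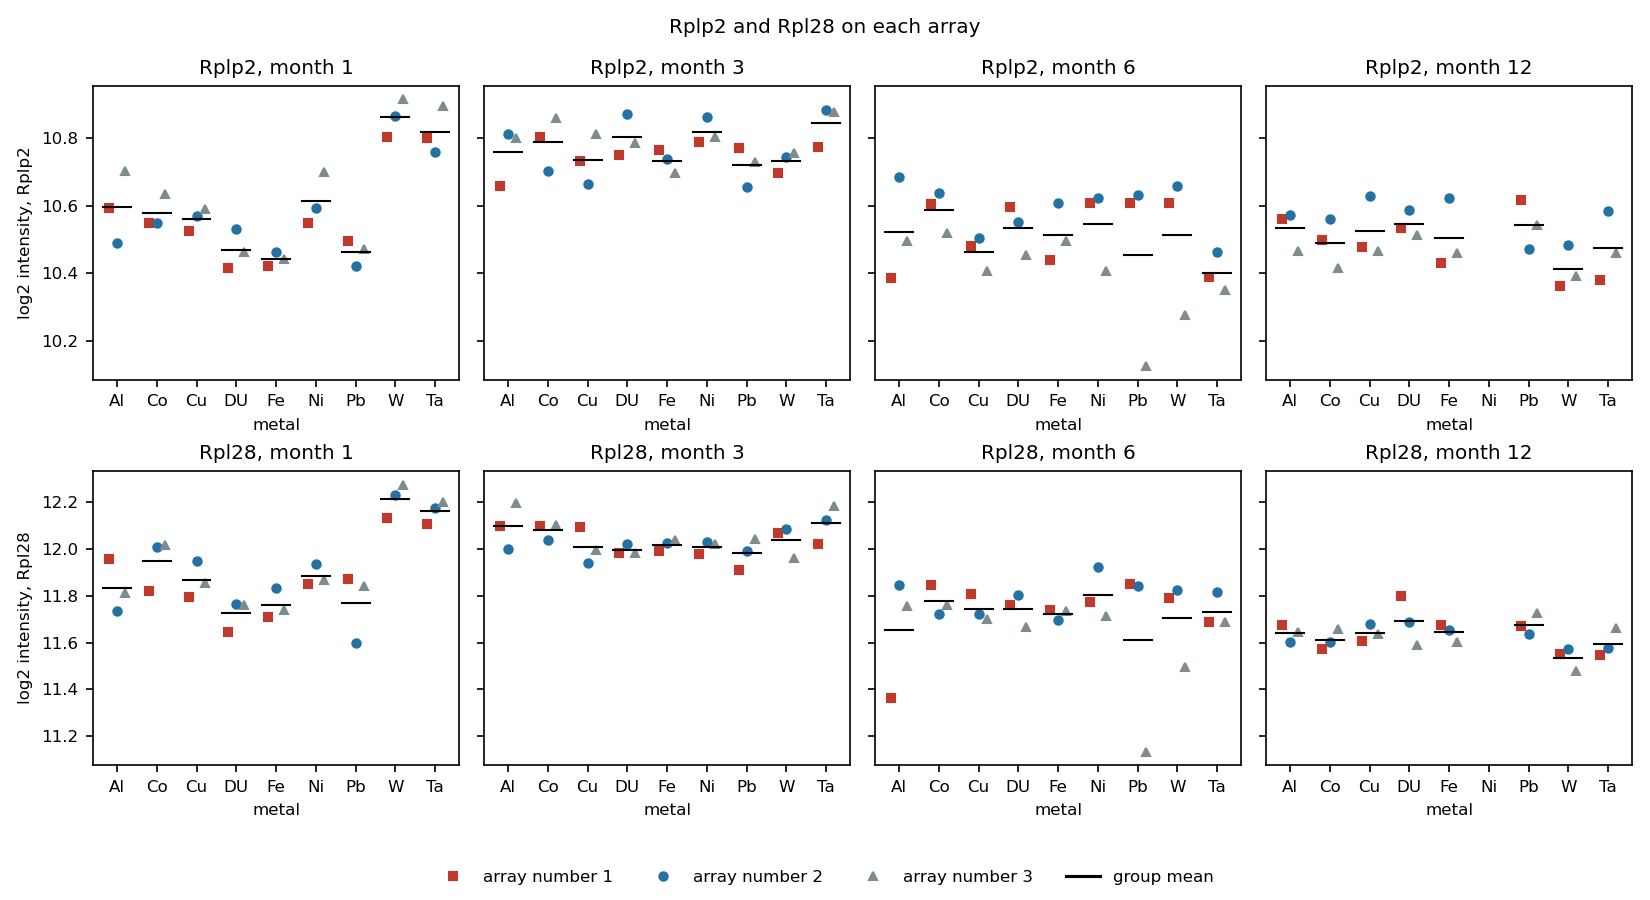
Log2 intensity of Rplp2 (upper row) and Rpl28 (lower row) on each array, by metal (tantalum last) and month, with squares, circles and triangles for arrays numbered 1, 2 and 3 and bars for group means. At 1 month the 6 arrays of tungsten and tantalum lie above the 21 arrays of the other 7 metals for both genes.

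The genes moved together from array to array. After the group means were taken out, the median correlation between pairs of the 60 genes was 0.356 over all arrays, against 0.0056 for pairs of all probe sets; arrays numbered 1 at 6 and 12 months contribute to it. For 17 genes the correlation with the mean of the others exceeded 0.8, with Rps21 at 0.922 and Rpl19 at 0.891. It was below 0.1 for 5, Rpl39l1 (-0.048), Rps12l4 (0.0092), Rps4y2 (0.022), Rpl30 (0.077) and Rpl27a (0.078), of which Rps12l4 was also the dimmest. Outside the family, the genes whose 35 group means were most like the mean of the 60 were Cst3, Esyt1, Tagln2, Aprt and Cfl1, with Pearson's r between 0.924 and 0.934. Those most like Rpl3l were Fbxo6, Tpcn1, Tmem134, Gpx4 and Tmem132a (0.799 to 0.827), and those most like Rpl3, looked up after its values were seen, were Tnfrsf1b, Clec2g, Man2a1, RT1-Da and Cyth4 (0.953 to 0.960). The points of each correlation share arrays, months and normalization.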

How the data were processed

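The values are the deposited log2 intensities of 22977 probe sets on Clariom S Rat arrays, 3 for each of 35 groups. They were summarised and normalized by the authors with RMA in oligo under R 4.0.1, per the submitters' processing notes; whether all arrays went through 1 run is not stated in the sources used here. Each array held 250 ng of pooled RNA, so p-values measure the spread between pools. After 23 control probe sets were left out, 22954 were tested with no filter; 14855 had 1 symbol. Array medians lay between 6.36 and 6.54, and the number of arrays limits the precision.

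In limma 3.58.1 under R 4.3.3, each group had its own mean in a single fit (lmFit and eBayes; 70 residual degrees of freedom). All p-values are two-sided and were adjusted by Benjamini and Hochberg's method across the 22954 probe sets of a comparison, with a threshold of 0.05. The fit was tested on simulated data with independent arrays, for comparisons with tantalum at 3 months only. Arrays that deviate together, as at 6 and 12 months here, were not simulated. That test therefore cannot judge the p-values between months. Comparisons within one array number used metal as a block. The labels' array numbers paired the samples (correlations of deviations over 0.1 for every number) in 0 of 8 metal and tantalum pairs at 1 and at 3 months, 8 of 8 at 6 months and 5 of 7 at 12 months.

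The genes, lists and comparisons were chosen with earlier results of these data known. Genes named are the paralogue pairs, Rpsa and the P-stalk genes; the called genes with the largest differences (up to 8 a direction between months, 5 between metals); the 5 most and least variable; the 5 least correlated with the others; the genes of each list with the smallest adjusted p; and the 5 most like the family's mean or Rpl3l. Others were named after their values were seen. Alternatives changed the normalization, filter, weights, block, reference and arrays used.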

Additional observations from a re-analysis of the deposited data

Results flagged for a closer look

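Rpl3 was the 1 gene of the 60 whose differences between metals depended on the month. The moderated F test of metal by month, over all groups with 23 degrees of freedom, gave an adjusted p of 0.00056 for it. Its difference from tantalum was 1.12 in cobalt and 0.81 in nickel muscle at 3 months, and -0.48 and -0.29 at 6 months. Leukocyte markers were higher in the same 2 groups at 3 months; their part was not tested.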

How the results depend on the processing

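Results that changed direction were single genes and small medians. For Rpl11, Rpl12, Rpl21 and Rpl27, month 12 minus 1 was below 0 with all arrays but 0.17, 0.23, 0.12 and 0.14 without the arrays numbered 1 at 6 and 12 months, 0.089, 0.19, 0.039 and 0.099 within arrays numbered 2, and 0.25, 0.27, 0.17 and 0.19 within arrays numbered 3. For Rpl23 and Rps25 it was above 0 but -0.11 and -0.38 within arrays numbered 1. Leaving out each number in turn gave -0.19 to 0.18 (Rpl11), -0.26 to 0.24 (Rpl12), -0.15 to 0.11 (Rpl21), -0.17 to 0.14 (Rpl27), -0.015 to 0.17 (Rpl23) and -0.086 to 0.32 (Rps25). The median of month 12 minus 6 (0.032) was -0.0046 without the 4 arrays of low muscle fibre markers, -0.014 within arrays numbered 1 and -0.0025 to 0.051 when each number was left out; that of month 3 minus 1 (-0.021) was 0.0059 within arrays numbered 2. Numbers below count ribosomal protein genes called, against 39 (12 minus 1 month), 38 (6 minus 3), 10 (3 minus 1), 4 (12 minus 6), 35 (12 minus 1 month in single metals), 7 (31 comparisons with tantalum), 2 (F over metals) and 1 (F, metal by month). Shares of all probe sets under most of these alternatives are not given here, so the counts show only how the calls moved. With a replicate block (array number within month), where the numbers paired every metal with tantalum at 6 months only, the counts were 17 (3 minus 1), 11 (12 minus 6), 118 (single metals), 21 (31 comparisons), 6 (F over metals) and 4 (metal by month); at 6 months the block added 0 calls against tantalum, and at 12 months 1. Metal by month gave 2 without the dimmest 30% of probe sets, and 3 each with median centring, a second quantile normalization, a robust trend and array weights. Month 12 minus 6 gave 2 with median centring, with array weights and over 7 metals without tantalum. The 31 comparisons gave 15 when fitted on the arrays of the month alone, 4 against all other groups and 14 without the arrays numbered 1 at 6 and 12 months, where single metals gave 17. Without the 4 arrays of low muscle fibre markers, an alternative chosen after the data were seen, the 31 comparisons gave 12 and metal by month gave 3. Within arrays numbered 1, 2 and 3, month 3 minus 1 gave 2, 2 and 0 and month 12 minus 6 gave 0, 0 and 0; within arrays numbered 2, month 6 minus 3 gave 12 and month 12 minus 1 gave 10, and within arrays numbered 1 the median of month 12 minus 1 was -0.32. Leaving out each replicate number in turn gave 22 to 39 (12 minus 1), 23 to 37 (6 minus 3), 4 to 7 (3 minus 1) and 0 to 1 (12 minus 6). It also gave 4 to 42 (single metals), 0 to 1 (F over metals) and 0 to 1 (metal by month). The medians were then -0.18 to -0.036 (12 minus 1) and -0.20 to -0.074 (6 minus 3). For the 31 comparisons, leaving out a replicate number or a single array gave 1 to 7. The cause of these shifts was not tested, beyond that fewer arrays entered. Rpl3 in cobalt muscle passed in all 9 fits that left out arrays (1.04 to 1.17); in nickel muscle it did not pass in 5 of 9, nor with adjustment over all 31 comparisons (adjusted p = 0.075). Single arrays were left out for 7 groups only. Genes near the background level, such as Rps12l4, are limited by signal.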

Other observations

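Rpl18 fell between 1 and 12 months in tungsten and tantalum muscle. It was at 8.87, 9.50 and 9.95 at 12 months, against 9.98, 9.90 and 10.06 at 1 month in tungsten muscle, and at 9.03, 9.56 and 9.60 at 12 months, against 9.96, 10.07 and 9.82 at 1 month in tantalum muscle. Month 12 minus 1 was -0.54 ± 0.16 in tungsten and -0.55 ± 0.16 in tantalum, and neither passed without the arrays numbered 1 at 6 and 12 months. In iron muscle it was at 9.60, 9.32 and 9.24 at 12 months, against 9.82, 9.97 and 9.65 at 1 month, and passed only without those arrays, at -0.53 ± 0.12 (adjusted p = 0.011). Rps18 in depleted uranium muscle at 12 months differed from tantalum by -0.40 ± 0.12 and did not pass (adjusted p = 0.16); with the replicate block it did (adjusted p = 0.036).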
